A study of Mus musculus with 32 samples.

Results

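P-selectin (Selp) and its main ligand PSGL-1 (Selplg) were followed through 8 sorted fractions of mouse bone marrow at both ages of the study. The members were taken by symbol from the table of raw gene counts, and both symbols were present, 2 of 24421 genes. RNA was sequenced from hematopoietic stem cells (HSCs), the multipotent progenitors MPP1 to MPP4, and the progenitors of lymphoid cells (CLPs), of megakaryocytes with erythrocytes (MEPs) and of granulocytes with macrophages (GMPs). The young mice were 10 weeks old and the aged mice 20 months old, and all were female C57BL/6 mice with no engineered allele and no treatment. Each of the 16 groups of a fraction and an age had 2 libraries, 32 in all.

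The cells were defined by surface antigens alone. HSCs and the MPPs were lineage- cells with Sca-1 and c-Kit and without IL-7Rα. Among these, HSCs carried CD150 but no CD48, Flt3 or CD34, and MPP1 differed from them in being CD34+. MPP2 were CD34+ CD150+ CD48+, MPP3 CD34+ CD150- CD48+ and MPP4 CD34+ CD150- CD48+ Flt3+. GMPs were Sca-1- c-Kit+ FcγR+ CD34+, MEPs Sca-1- c-Kit+ FcγR- CD34-, and CLPs IL-7Rα+ lineage- cells low in Sca-1 and c-Kit. No antibody to P-selectin or to the platelet integrin CD41 was named for the sort. The study states in one place that marrow was pooled and sorted in duplicate and elsewhere calls the duplicates biological. The mice behind each library were not given, so errors and p-values here measure the spread between such duplicates, which may be technical and need not hold the variation between mice. Total counts were 11237384 to 17723245 per library, and 0 counts of a gene leave room for up to 3, or 0.169 to 0.267 CPM (counts scaled to a library total of 1e+06). These floors cover counting error only, since the reads had no molecular identifiers. Several genes of the sort antigens followed the gates, with the highest mean of Slamf1 (CD150) in HSCs, of Flt3 in MPP4, of Fcgr3 in GMPs and of Il7r in CLPs, and under 1 CPM of Cd34 in MEPs. Sort antigen genes also moved with age within a gate. In MEPs 5 of 8 were lower and 0 higher at adjusted p under 0.01 (edgeR quasi-likelihood test), as were 20.8% of all genes in either direction. Their median there was -1.73 on the log2 scale. Every other fraction had at most 2 higher and at most 2 lower.

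Selectins are membrane lectins that catch passing cells under flow. P-selectin is stored in the granules of platelets and endothelial cells and moves to the surface on activation, and E-selectin (Sele) is made by activated endothelium. PSGL-1 is a mucin on leukocytes and progenitors that binds selectins once its sugars have been fucosylated and sialylated and its tyrosines sulfated, and it serves the rolling and homing of progenitors in marrow vessels.

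Selp (ENSMUSG00000026580.16) lies on chromosome 1 from 164115264 to 164150026 on the plus strand of mm10 (GENCODE M21 annotation), beside F5. Its longest coding transcript has 16 exons and 3438 bases. Selplg (ENSMUSG00000048163.13) lies on chromosome 5 from 113818536 to 113832644 on the minus strand, with a longest coding transcript of 2 exons and 1855 bases. The 250 bases upstream of the Selp start are shown because Selp is the member whose level changed with age in most fractions. They are RefSeq sequence of GRCm38.p6, chr1:164115014-164115263, plus strand, with matches to the motifs searched in capitals.

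Selp upstream: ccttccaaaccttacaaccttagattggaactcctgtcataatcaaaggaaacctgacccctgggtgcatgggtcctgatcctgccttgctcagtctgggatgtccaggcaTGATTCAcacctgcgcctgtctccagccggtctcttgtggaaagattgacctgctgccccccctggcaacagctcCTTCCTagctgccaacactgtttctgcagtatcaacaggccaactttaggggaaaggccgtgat

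Both strands were searched for 5 motifs, and 2 had a match. The AP-1 pattern TGANTCA, with any base allowed in the middle, matched as TGATTCA at bases -139 to -133 from the start. Its middle T differs from the C or G of the usual AP-1 site. Of 32851 upstream windows of the same length, 6.75% held the pattern with any middle base. The ETS pattern AGGAAG, which is longer than the GGAA core, matched on the minus strand at -64 to -59, and 29.5% of windows held it. Other GGAA stretches in the window were not searched for and are not in capitals. The STAT motif TTCNNNGAA (7.02% of windows), the CRE TGACGTCA (1.55%) and the GATA motif AGATAA (9.99%) had no match in these letters. A match describes the sequence and was not tied to binding. No upstream sequence was printed for Selplg.

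Selp transcripts were more abundant in aged than in young cells in 7 of the 8 fractions. The fitted difference was larger in HSCs than in MPP1 to MPP4, GMPs and MEPs. In CLPs the ratio of summed counts, 38.8, was above the 11.6-fold difference in HSCs, but it rests on 3 young reads. The 2 young HSC libraries had 481 and 518 Selp counts, 42.7 and 36.4 CPM, and the 2 aged HSC libraries had 5475 and 6602 counts, 464 and 454 CPM. The aged values lay close together and far above both young values. Mean levels were 39.6 ± 4.47 and 459 ± 6.87 CPM (SD, n = 2 each), an 11.6-fold difference. In the fit over all genes the difference was 3.58 ± 0.15 on the log2 scale (SE, edgeR quasi-likelihood test, adjusted p = 1.60e-12). By p-value Selp ranked 1 among the 14154 genes tested in HSCs, of which 5.40% were called at the threshold of adjusted p 0.01.

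**Figure D1:**
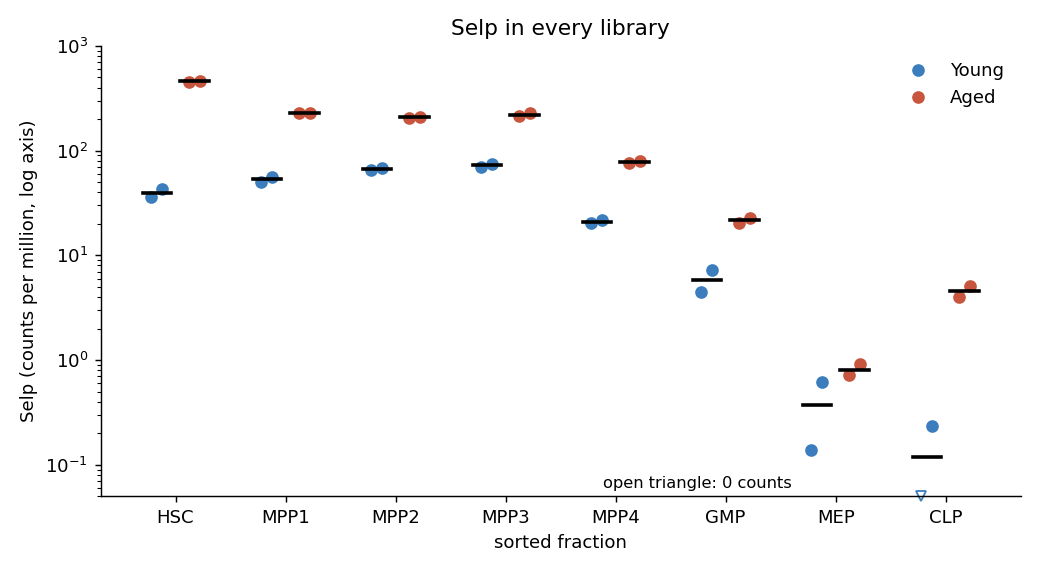
Selp in CPM (log axis) in each of the 32 libraries, by sorted fraction, with young libraries in blue, aged in red and a black line at the mean of each group. The aged libraries lie above the young ones in all 8 fractions, from 454 to 464 in aged HSCs down to 0.712 to 0.907 in aged MEPs, and the open triangle marks the young CLP library with 0 counts.

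In MPP1 the young libraries had 50.7 and 55.6 CPM of Selp and the aged libraries 231 and 230 CPM. The 4.34-fold difference was 2.16 ± 0.14 on the log2 scale (adjusted p = 6.30e-09, with 6.80% of genes called in MPP1). In MPP2 the young values were 68.5 and 65.4 CPM and the aged values 207 and 208 CPM. The aged MPP2 libraries were again clear of the young ones, at 1.68 ± 0.14 (adjusted p = 1.55e-07, 7.81% called). In MPP3, Selp was at 70.3 and 74.3 CPM in young and 212 and 230 CPM in aged libraries. Its log2 difference there was 1.66 ± 0.14 (adjusted p = 9.67e-08, 13.9% called), close to that in MPP2.

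In MPP4, the lymphoid-primed fraction, Selp was lower at both ages, at 20.1 and 21.8 CPM in young and 75.5 and 79.2 CPM in aged libraries. It rose by 1.97 ± 0.15 on the log2 scale (adjusted p = 1.27e-08, 16.6% called). The young GMP libraries had 78 and 127 counts, 4.49 and 7.17 CPM, and the aged libraries 300 and 274 counts, 22.8 and 20.4 CPM. The log2 difference in GMPs was 1.83 ± 0.18 (adjusted p = 1.89e-07, 18.9% called), on a level far under that of HSCs.

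MEPs and CLPs held few Selp reads. In MEPs the counts were 10 and 2 in young and 8 and 11 in aged libraries, that is 0.612 and 0.137 against 0.712 and 0.907 CPM. The difference of 1.05 ± 0.55 did not pass the test (adjusted p = 0.140, 20.8% called), on 2 to 11 counts per library. In CLPs the young libraries had 3 and 0 counts, at or under the floor, and the aged libraries 56 and 71 counts, 4.00 and 5.08 CPM. Selp was called higher in aged CLPs (adjusted p = 1.29e-07, 10.4% called). With 127 aged and 3 young reads, each set over the summed library totals, the ratio was 38.8, with an exact 95% binomial interval of 12.99 to 191 that covers counting error only. In bulk samples a change in the number of Selp-positive cells and a change in RNA per cell cannot be told apart. The aged libraries lay above the young ones in 8 of 8 fractions, where between 22.1% of tested genes in HSCs and 34.3% in GMPs lay wholly above.

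**Figure D2:**
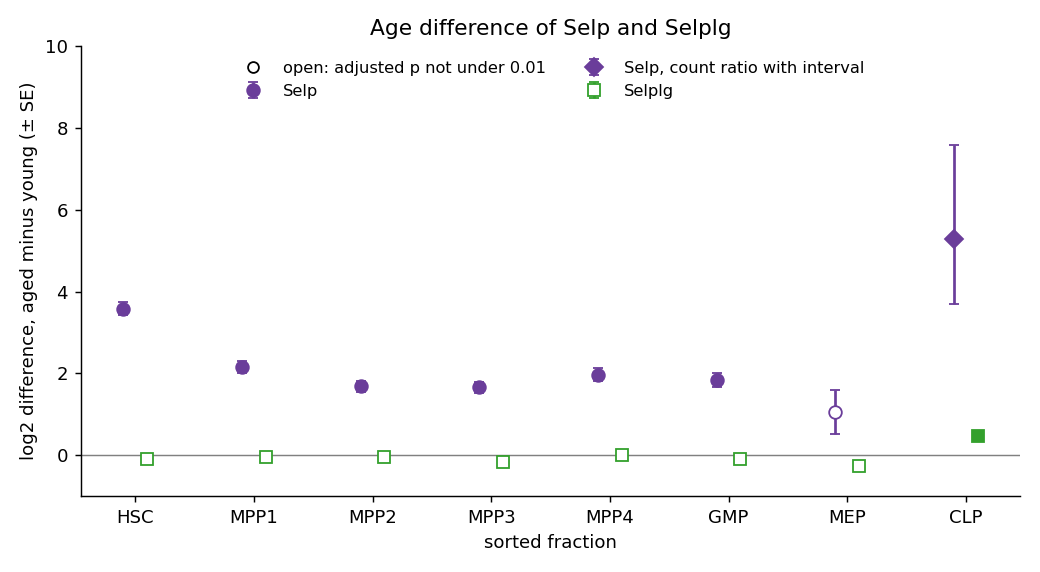
Log2 difference of aged minus young cells for Selp (circles) and Selplg (squares) in each fraction, with standard errors of the fit over 32 libraries. Filled symbols passed adjusted p 0.01, open ones did not, and the diamond marks the ratio of summed counts for Selp in CLPs, 5.28 with its 95% counting interval of 3.70 to 7.58, while Selplg stays between -0.27 and 0.46.

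The age difference of Selp was larger in HSCs than in most other fractions when the difference between fractions was itself tested. It exceeded that in MPP1 by 1.43 ± 0.20 on the log2 scale (adjusted p = 0.00147), in a contrast that called 0.120% of genes. The excess was 1.90 ± 0.20 over MPP2 (adjusted p = 6.48e-06, 0.805% called) and 1.93 ± 0.20 over MPP3 (adjusted p = 3.63e-06, 2.12% called). Over MPP4 it was 1.61 ± 0.21 (adjusted p = 5.24e-05, 3.13% called), and over the mean of MPP1 to MPP4 it was 1.72 ± 0.16 (adjusted p = 8.19e-07, 3.00% called). The excess over GMPs was 1.75 ± 0.23 (adjusted p = 1.86e-05, 11.7% called). Over MEPs it was 2.53 ± 0.62 (adjusted p = 0.00571, 13.1% called), which rests on 2 to 11 counts per MEP library. Without young MEP replicate 1 this last value was 1.09 with adjusted p = 0.618, and it also missed the threshold without young HSC replicate 2 (adjusted p = 0.0110) or without aged MEP replicate 1 or 2 (adjusted p = 0.0208 and 0.0140). The comparison with MPP1 missed the threshold without young HSC replicate 2 or without either aged MPP1 library, at adjusted p = 0.0190 to 0.0204. Against CLPs no excess was called (adjusted p = 0.113, 10.4% called), and since the young CLP libraries held 3 Selp reads in all its size is not given. These 8 comparisons share the HSC libraries.

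The order of the fractions by Selp level differed between the ages. In young marrow the means fell from MPP3 (72.3 CPM) through MPP2 (66.9), MPP1 (53.1), HSCs (39.6), MPP4 (21.0) and GMPs (5.83) to MEPs (0.375) and CLPs (0.118), so that HSCs stood 4th. In aged marrow HSCs (459 CPM) stood 1st, followed by MPP1 (230), MPP3 (221), MPP2 (207), MPP4 (77.4), GMPs (21.6), CLPs (4.54) and MEPs (0.809). Neighbours in each order were tested, with the order taken from the same libraries.

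Among young cells MPP3 and MPP2 did not differ beyond their spread (0.13 ± 0.14 on the log2 scale, adjusted p = 0.801, 2.39% of genes called), nor did MPP2 and MPP1 (0.37 ± 0.14, adjusted p = 0.0931, 6.82% called). MPP1 over HSCs was 0.40 ± 0.14 (adjusted p = 0.0476, 14.8% called), which also missed the threshold. Young MPP4 lay under HSCs by 0.88 ± 0.15 (adjusted p = 6.53e-05, 34.6% called) and GMPs under MPP4 by 1.46 ± 0.18 (adjusted p = 2.06e-07, 58.4% called). MEPs lay under GMPs by 4.12 ± 0.33 (adjusted p = 3.43e-10, 50.5% called), while MEPs and CLPs, both near the floor, were not separated (adjusted p = 0.0799, 61.3% called).

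Among aged cells HSCs exceeded MPP1 in Selp by 1.03 ± 0.13 (adjusted p = 3.81e-06, 22.9% called). MPP1 and MPP3 were not separated, at -0.01 ± 0.13 for MPP1 minus MPP3 (adjusted p = 1, 8.25% called), and the step from MPP3 to MPP2 was 0.10 ± 0.13 (adjusted p = 0.913, 1.34% called). MPP4 lay under MPP2 by 1.37 ± 0.14 (adjusted p = 2.67e-07, 9.48% called), GMPs under MPP4 by 1.60 ± 0.15 (adjusted p = 9.02e-09, 42.1% called) and CLPs under GMPs by 2.41 ± 0.19 (adjusted p = 3.81e-10, 45.9% called). CLPs and MEPs, at the bottom of the order, were separated by 2.48 ± 0.33 (adjusted p = 7.41e-07, 60.6% called).

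Set directly against HSCs of the same age, Selp was higher in young MPP2 by 0.78 ± 0.14 (adjusted p = 1.56e-04, 33.5% of genes called) and in young MPP3 by 0.91 ± 0.14 (adjusted p = 3.03e-05, 30.3% called). Young GMPs and MEPs were lower, at -2.34 ± 0.17 and -6.45 ± 0.27 (64.6% and 68.7% called). Young CLPs were called lower as well (57.3% called), and the ratio of summed counts of young HSCs over young CLPs was 336, with an exact 95% binomial interval of 115 to 1631. In aged marrow the sign for MPP2 and MPP3 was the opposite one, with values of -1.12 ± 0.14 (adjusted p = 4.99e-07, 39.5% called) and -1.02 ± 0.13 (adjusted p = 1.73e-06, 40.3% called). Aged MPP4, GMPs, MEPs and CLPs were lower than HSCs, at -2.49 ± 0.14, -4.09 ± 0.16, -8.98 ± 0.23 and -6.50 ± 0.19, in contrasts that called 45.5%, 60.2%, 68.5% and 55.4% of genes.

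Selplg, the ligand, behaved differently. It was called with age in CLPs only, where it rose, and its differences in the other 7 fractions did not pass the test. In CLPs the young libraries had 14538 and 14996 counts, 1144 and 1155 CPM, and the aged libraries 22684 and 21023 counts, 1619 and 1503 CPM. Both aged values lay above both young ones, with means of 1150 ± 7.93 and 1561 ± 81.7 CPM (SD, n = 2 each). The difference was 0.46 ± 0.07 on the log2 scale (adjusted p = 1.41e-04). When only the 4 CLP libraries were fitted it was 0.46 with adjusted p = 0.0263, and the Selp difference in CLPs also missed the threshold in that smaller fit (adjusted p = 0.0192).

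**Figure D3:**
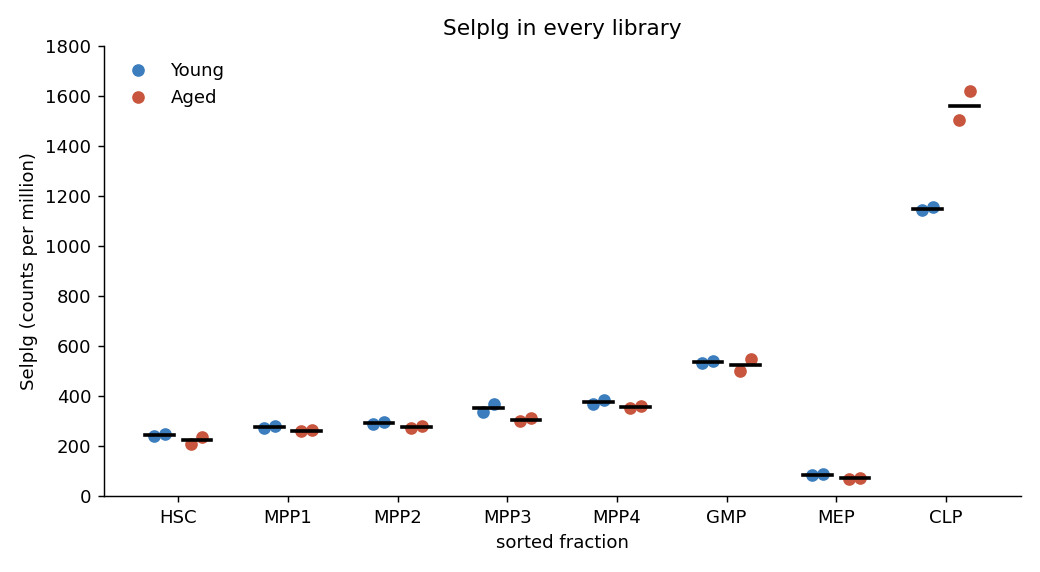
Selplg in CPM in each of the 32 libraries, by sorted fraction, with young libraries in blue, aged in red and a black line at the mean of each group. CLPs stand highest at 1144 to 1619, MEPs lowest at 70.4 to 87.5, and the ages lie close together in the other fractions.

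In HSCs the young libraries had 248 and 241 CPM of Selplg and the aged ones 210 and 237 CPM. The aged values were a little lower and further apart, and the difference of -0.08 ± 0.07 on the log2 scale did not pass the test (adjusted p = 0.558). MPP1 had 282 and 272 CPM in young and 263 and 260 CPM in aged libraries, and MPP2 had 290 and 298 against 281 and 274 CPM. Neither was called, at -0.04 ± 0.07 in each (adjusted p = 0.813 and 0.818). MPP3 had 335 and 370 CPM against 299 and 313 CPM, -0.16 ± 0.07 (adjusted p = 0.138). The values in MPP4 were 370 and 384 against 351 and 360 CPM, a difference of 0.00 ± 0.07 after normalization (adjusted p = 1).

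GMPs had 533 and 541 CPM of Selplg in young and 499 and 549 CPM in aged libraries, which overlapped (-0.09 ± 0.07, adjusted p = 0.424). MEPs had the lowest level, at 87.5 and 85.6 CPM in young and 73.1 and 70.4 CPM in aged libraries. Their difference of -0.27 ± 0.08 missed the threshold in the main fit (adjusted p = 0.0110) and passed it under DESeq2 size factors, without the filter on low counts and by DESeq2's Wald test (adjusted p = 8.00e-04 to 0.00309). The age difference in HSCs was smaller than that in CLPs by 0.54 ± 0.10 on the log2 scale (adjusted p = 8.72e-04), and the other 7 comparisons of HSCs with another fraction or with the mean of MPP1 to MPP4 were not called, at adjusted p = 0.237 to 1.

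The order of the fractions by Selplg was the same at both ages, CLP, GMP, MPP4, MPP3, MPP2, MPP1, HSC and MEP from highest to lowest. CLPs exceeded GMPs by 0.87 ± 0.07 on the log2 scale in young cells (adjusted p = 1.48e-09, 54.1% of genes called) and by 1.41 ± 0.07 in aged cells (adjusted p = 6.48e-13). GMPs exceeded MPP4 by 0.89 ± 0.07 and 0.81 ± 0.07 (adjusted p = 6.90e-10 and 6.92e-09), and HSCs exceeded MEPs by 1.31 ± 0.08 and 1.50 ± 0.08 (adjusted p = 7.69e-13 and 1.03e-13). The steps between were small. In young cells MPP4 over MPP3 was 0.10 ± 0.07 (adjusted p = 0.542, 5.78% called) and in aged cells 0.26 ± 0.07 (adjusted p = 0.0334, 4.25% called). MPP3 over MPP2 was 0.28 ± 0.07 (adjusted p = 0.0321) and 0.16 ± 0.07 (adjusted p = 0.428), and MPP2 over MPP1 was 0.13 ± 0.07 at each age (adjusted p = 0.309 and 0.280, with 5.55% of genes called in aged cells). MPP1 over HSCs was 0.15 ± 0.07 and 0.20 ± 0.07 (adjusted p = 0.140 and 0.0466, the latter 0.36 and 0.00120 without aged HSC replicate 2). None of these neighbours passed the threshold, though over the whole span MPP4 lay above HSCs by 0.66 ± 0.07 in young and 0.75 ± 0.07 in aged cells (adjusted p = 2.18e-07 and 2.32e-08).

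The levels of the 2 genes did not follow each other across the fractions. Over the 16 group means of log2 CPM their Pearson correlation was -0.10 and their Spearman correlation -0.23, given as a description. In young CLPs Selplg stood above every other young fraction, while the Selp libraries, at 0 and 0.236 CPM, overlapped those of young MEPs and lay below the others.

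To compare the receptor with its ligand, counts were divided by the length of the longest coding transcript (RPKM, CPM per 1000 bases of transcript). In young HSCs Selplg was at 132 ± 2.51 and Selp at 11.5 ± 1.3 RPKM, a ratio of 11.5 ± 1.08 (SD, n = 2). In aged HSCs they were at 120 ± 10.4 and 134 ± 2.00 RPKM, a ratio of 0.902 ± 0.0913, so that aged HSCs were the one group of 15 with a mean ratio under 1. Young MPP1, MPP2, MPP3 and MPP4 had ratios of 9.70, 8.16, 9.03 and 33.3, and young GMPs 180. The aged counterparts stood at 2.11, 2.48, 2.57, 8.52 and 45.3, each lower. MEP ratios were 265 and 1154 in young and 144 and 190 in aged libraries and rest on 2 to 11 Selp counts per library. Aged CLPs, with 842 ± 44.1 RPKM of Selplg, had a ratio of 650 ± 143. Young CLPs had too few Selp counts for a ratio. With the union of all annotated exons as the length, chosen after seeing the data, the ratio in aged HSCs was 0.503 and in young HSCs 6.42.

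**Figure D4:**
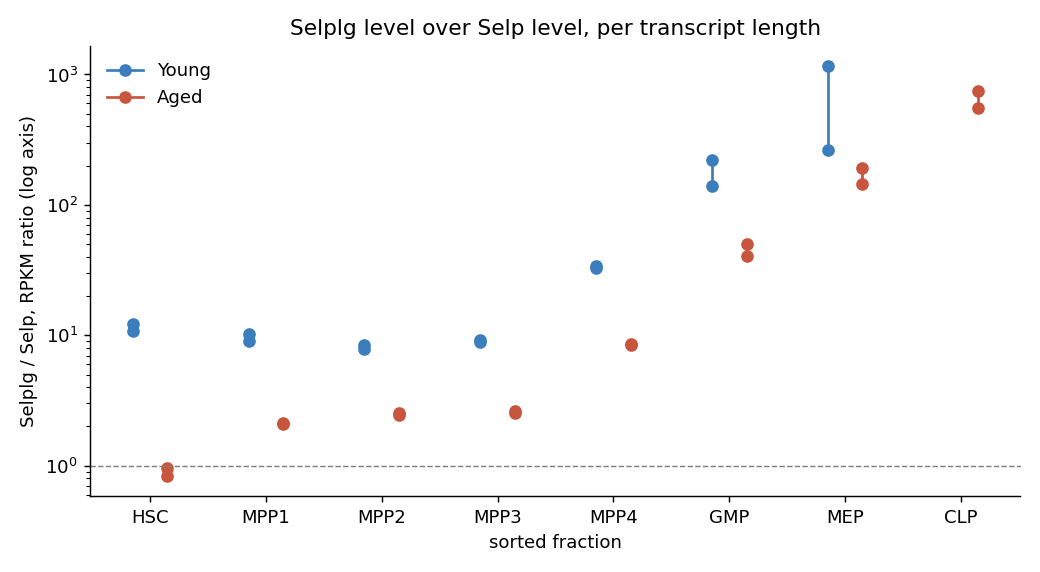
Ratio of Selplg to Selp in RPKM (log axis) by fraction, with the 2 libraries of a group joined by a line, young in blue and aged in red, and a dashed line at 1. Aged HSCs lie at 0.837 and 0.966, young HSCs at 10.7 and 12.3, and the ratio is lower in aged than in young cells in HSCs, MPP1 to MPP4 and GMPs, while the MEP points rest on 2 to 11 Selp counts per library.

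The 5 genes whose group means followed Selp most closely over the 16 groups were Galr3, a galanin receptor (Pearson r = 0.958), Gm16548 (0.946), the homeobox factor Gbx2 (0.941), the dehydratase L3hypdh (0.933) and Tmem100, a small membrane protein (0.931). Spearman correlations were 0.956, 0.979, 0.924, 0.938 and 0.849. Galr3, L3hypdh and Tmem100 were low throughout, with highest group means of 3.80, 4.14 and 2.02 CPM. Galr3 was highest in aged MPP3 and Tmem100 in young HSCs. When genes were ranked by Spearman correlation, 3 of the 5 stayed among the first 5. Only Gm16548 of these was called with age in HSCs, at 3.21 ± 0.24 on the log2 scale (adjusted p = 3.51e-08). Gm16548 is a noncoding gene on the opposite strand at the 3′ end of Selp and shares 438 exon bases with it. Its counts were 42 and 44 in young and 360 to 444 in aged HSCs, and in the 13 groups with at least 100 Selp counts they came to 5.15% to 8.67% of the Selp counts, apart from 28.3% in aged CLPs. Use of strand was not stated for the counting, so reads in these shared bases cannot be assigned to Gm16548 or to Selp. The union of annotated Selp exons has 4413 bases, and how many reads fell in the shared part was not examined. A further antisense gene, Gm16587, shares 186 exon bases with Selp.

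The genes closest to Selplg were Prkcd, protein kinase C delta (r = 0.979), the GTPase-activating Arhgap17 (0.979), 5031439G07Rik (0.979), the Src-family kinase Lyn (0.974) and the transcriptional regulator Hes6 (0.970). All 5 had their highest mean in CLPs. When genes were ranked by Spearman correlation, 1 of the 5 stayed among the first 5. Of these Prkcd, Arhgap17 and Lyn also rose with age in CLPs, by 0.58, 0.55 and 0.45 on the log2 scale (adjusted p = 0.00118, 2.09e-05 and 0.00147), and none was called in HSCs.

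Sele, which lies near Selp on chromosome 1, had no count in any HSC, MPP1 or MEP library. Its highest values were 49 and 37 counts in young MPP3, against 2 and 4 in aged MPP3, which did not pass the test (adjusted p = 0.0313).

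Among the 10 genes that carry selectin ligands, 8 were tested, Selplg included. In HSCs 1 of them fell and 0 rose, with 5.40% of all genes called in either direction, and their median difference was -0.05 on the log2 scale against 0.02 over all genes. The gene that fell was Cd44, the hyaluronan receptor that carries an E-selectin ligand, from 154 ± 6.91 to 114 ± 8.02 CPM (-0.40, adjusted p = 7.50e-05). Cd44 also fell by 0.22 to 0.41 in MPP1 to MPP4 and GMPs and rose in CLPs by 0.62 ± 0.06 (adjusted p = 1.08e-07) beside Selplg. In CLPs, where 10.4% of all genes were called, 3 of 8 rose and 2 fell, among them Cd24a, a mucin-like P-selectin ligand, at -0.74 ± 0.06 (adjusted p = 6.85e-08), and Emcn, endomucin, which stood at 1.63 CPM in young and 0.143 CPM in aged CLPs. Podxl, podocalyxin, rose in MPP2 by 1.38 ± 0.32 (adjusted p = 0.00632), with values of 0.82 in HSCs (adjusted p = 0.0866), 1.17 in MPP1 (adjusted p = 0.0143) and 1.42 in MPP4 (adjusted p = 0.0388) that did not pass. Cd24a also fell by 0.26 in MPP2, by 0.29 in MPP3 and by 0.49 in MEPs, and its values of -0.23 in MPP1 and -0.22 in GMPs did not pass. Emcn fell by 1.11 in MPP4 (adjusted p = 0.00921) and was at -0.98 in MPP3 (adjusted p = 0.0218), and Spn, leukosialin, rose in GMPs and MEPs by 0.40 and 0.53 (adjusted p = 0.00627 and 5.78e-04). Across fractions 0 to 3 of the 8 rose and 1 or 2 fell.

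Of the enzymes that build the sugars and sulfates of PSGL-1, 1 of 17 tested rose and 0 fell in HSCs, a share near the 5.40% over all genes, and the median was 0.10. The gene that rose was Gmds, the first enzyme of GDP-fucose synthesis, from 45.1 ± 3.15 to 63.1 ± 4.65 CPM (0.53 ± 0.10, adjusted p = 0.00161). Gmds rose in all 4 MPP fractions too, by 0.51 to 0.74, and fell by 0.43 in MEPs. Tsta3, which completes GDP-fucose, rose in MPP4 by 0.42 (adjusted p = 0.00388), and its values of 0.33 in MPP1 and 0.35 in MPP2 did not pass. Tpst2, a tyrosine sulfotransferase, fell by 0.35 in MPP2, 0.36 in MPP3 and 0.31 in MPP4 and rose in MEPs by 0.57 (adjusted p = 3.26e-05). MEPs had 2 of 17 higher and 6 lower, in the fraction where most genes were called overall (20.8%), and their lowest adjusted p was that of Fut7, the fucosyltransferase of the selectin ligand sugar, which fell from 8.63 to 0.946 CPM (-3.18, adjusted p = 2.14e-08). Fut4, a related fucosyltransferase, fell by 2.46 in MEPs (adjusted p = 4.15e-05) and rose in CLPs by 0.89 (adjusted p = 0.00415). The sialyltransferase St3gal1 fell by 0.61 in MPP4 (adjusted p = 0.00747) and rose in CLPs by 0.80 (adjusted p = 0.00113), and its relative St3gal6 fell by 0.74 in MPP3 (adjusted p = 0.00800). In CLPs the sulfotransferase Tpst1 fell by 0.55 (adjusted p = 6.10e-04). In GMPs the one call was C1galt1c1, the chaperone of the core O-glycan enzyme, which fell by 1.31 (adjusted p = 8.51e-08). The other 7 fractions had 1 or 2 of 17 higher and, MEPs aside, at most 2 lower.

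Of 15 genes that act below PSGL-1, 2 rose and 1 fell in HSCs (5.40% of all genes called), with a median of 0.12. Ezrin (Ezr), which links PSGL-1 to actin, rose by 0.34 ± 0.07 (adjusted p = 0.00205), the kinase Syk fell by 0.41 ± 0.09 (adjusted p = 0.00481), and the Src-family kinase Fgr rose from 4.89 to 12.2 CPM (1.38 ± 0.33, adjusted p = 0.00792). MEPs had 9 of 15 lower and 0 higher, with a median of -0.91 against 0.00 over all genes and 20.8% of all genes called. CLPs had 4 higher and 0 lower, with 10.4% of all genes called. The other 5 fractions had at most 2 higher and 3 lower.

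Platelets and endothelium are the classical sources of Selp, so their markers were read beside it. In aged HSCs 3 of the 13 tested platelet markers rose, Vwf by 0.92, Itga2b by 0.96 and Itgb3 by 1.25, and 0 fell. Over all genes 5.40% were called in HSCs. The summed level of the 14 listed markers was 1719 to 1860 CPM in young and 1915 to 2008 CPM in aged HSCs. The platelet chemokine genes Pf4 and Ppbp, which define platelets, stood at 17.5 and 5.59 CPM in young and 11.4 and 1.86 CPM in aged HSCs and did not pass the test. Of the endothelial markers, Cdh5 and Sele, the latter made by activated endothelium, had 0 counts in HSCs of both ages. The endothelial markers together summed to 12.9 to 15.7 CPM in young and 26.8 to 30.4 CPM in aged HSCs, most of it Kdr. Of the 6 tested, 0 were called in HSCs. Markers of neutrophils (4 of 6 higher, 43.4 to 47.3 CPM in young and 203 to 217 CPM in aged libraries) and of basophils and mast cells (4 of 5 higher, 1.05 to 1.78 against 11.2 to 18.7 CPM) also moved in HSCs, and their part in the Selp difference was not tested.

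**Figure D5:**
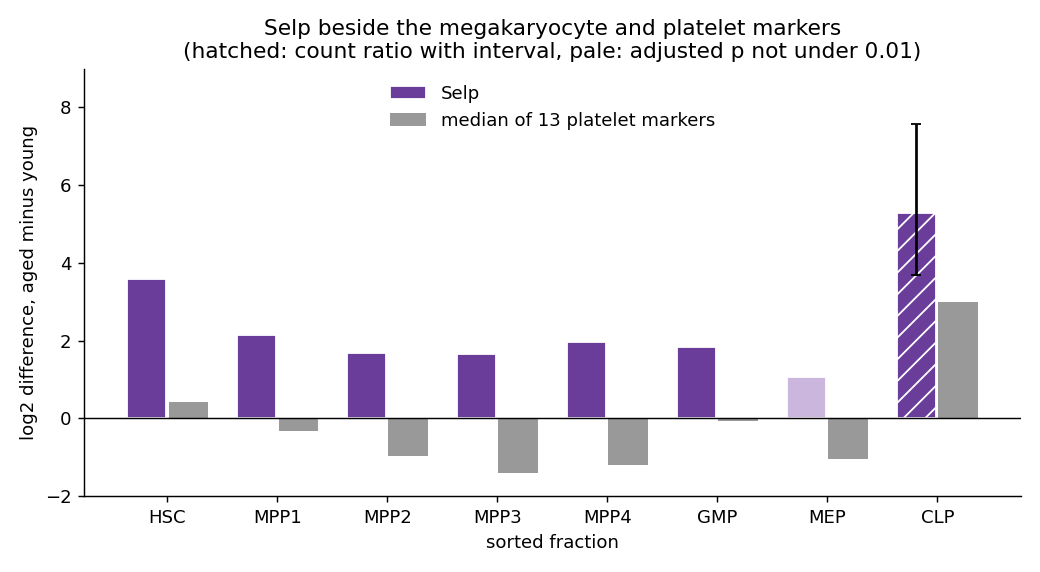
Log2 difference of aged minus young cells for Selp (purple) and for the median of the 13 tested megakaryocyte and platelet markers (grey), by fraction, with the hatched bar the ratio of summed counts and its 95% counting interval and the pale bar a difference that did not pass adjusted p 0.01. The marker median is below 0 in MPP1 to MPP4, down to -1.40 in MPP3, where Selp rose, and both are above 0 in HSCs and CLPs.

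In the MPPs Selp rose while 1 to 6 of the 13 platelet markers fell and 0 rose. Over all genes 6.80%, 7.81%, 13.9% and 16.6% were called with age in MPP1, MPP2, MPP3 and MPP4. In aged MPP3, 6 of 13 fell and 0 rose, with a median of -1.40, and their sum went from 837 to 871 CPM in young to 454 to 475 CPM in aged libraries. The medians in MPP1, MPP2 and MPP4 were -0.33, -0.97 and -1.19, with 1, 4 and 4 lower and 0 higher. GMPs and MEPs had medians of -0.06 and -1.03, with 0 and 3 lower and 18.9% and 20.8% of all genes called. The endothelial genes Kdr, Plvap and Stab2 also fell in MPP3, where Sele had its only appreciable counts. Markers of other cells moved with age in the MPPs too. In MPP3 the neutrophil markers summed to 685 to 709 CPM in young and 116 to 138 CPM in aged libraries (5 of 6 lower), the macrophage markers to 110 to 119 against 32.5 CPM in both aged libraries (5 of 7 lower) and the erythroid markers to 257 to 402 against 36.7 to 38.3 CPM (4 of 6 lower). In MPP2, 4 of 6 neutrophil and 4 of 6 erythroid markers were lower, and in MPP4, 5 of 7 macrophage markers. Their part in the Selp differences of the MPPs was not tested. In GMPs the neutrophil markers summed to 216 to 221 CPM in young and 77.0 to 98.5 CPM in aged libraries (3 of 6 lower). The basophil and mast cell markers summed to 527 to 530 against 229 to 293 CPM (2 of 5 lower). Erythroid markers summed to 118 to 151 against 1.86 to 9.04 CPM (3 of 6 lower), and 4 of 7 macrophage markers were lower. Of these GMP markers 0 rose, and their part in the Selp difference was not tested.

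CLPs differed from this. In aged CLPs 8 of the 13 platelet markers rose beside Selp and 0 fell, with 10.4% of all genes called. Their median was 2.99, and the summed level was 124 to 136 CPM in young and 260 to 362 CPM in aged libraries. Pf4 went from 3.34 to 54.0 CPM and Ppbp from 0.856 to 21.6 CPM. Markers of other cells moved in CLPs as well. The basophil and mast cell markers summed to 1664 to 1697 CPM in young and 7.64 to 11.6 CPM in aged CLPs, the macrophage markers to 133 to 148 against 3.22 to 3.71 CPM, and the B cell markers to 1679 to 1734 against 696 to 728 CPM. The neutrophil markers summed to 367 to 373 against 56.2 to 107 CPM, with 5 of 6 lower. The endothelial markers summed to 23.5 to 25.3 CPM in young and 42.8 to 60.4 CPM in aged CLPs, with 1 of 6 higher and 1 lower. Among them Kdr rose from 3.23 and 3.47 to 19.9 and 12.4 CPM (adjusted p = 9.29e-04), and Cdh5 stood at 12.4 and 12.0 CPM in young and 34.4 and 21.8 CPM in aged libraries (adjusted p = 0.0977). Ly6a, the gene of the sort antigen Sca-1, was at 33.6 CPM in young and 201 CPM in aged CLPs. The part of these cells in the Selp and Selplg differences of CLPs was not tested. In MEPs the B cell markers, at 98.8 to 100 CPM in young and 0 to 0.801 CPM in aged libraries, moved beside Selplg, and their part was likewise not tested.

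Several genes near Selp were not called with age in HSCs. Within 150000 bases of Selp, this held for BC055324, Mettl18, F5, Slc19a2, Ccdc181 and Blzf1, with log2 differences from -1.25 for F5 (adjusted p = 0.0151) to 0.08 for Ccdc181. The overlapping Gm16548, at 3.21, was called higher in HSCs along with Selp.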

How the data were processed

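RNA-seq libraries of 8 sorted bone marrow fractions at 2 ages were used, 2 per group. The authors amplified total RNA with a SMARTer low-input kit and sequenced single reads. They aligned these with TopHat2 2.0.13 and Bowtie2 2.1.0 to mm10 and deposited whole-number raw counts per gene from StringTie, with no use of strand stated. Reads had no molecular identifiers, so PCR copies count as reads. Their table of normalized values, in which 20 of 32 columns were not matched to a label by name, and their comparison tables (fold changes, Wald statistics, p-values) were not used.

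All 32 libraries entered one edgeR 4.0.16 quasi-likelihood fit (R 4.3.3) with TMM factors, filterByExpr over the 16 groups (14154 of 24421 genes kept) and 1 mean per group, with 16 residual degrees of freedom. P-values were two-sided and adjusted by Benjamini-Hochberg over all genes within each contrast, and genes with adjusted p under 0.01 were called. CPM is the count scaled to a library total of 1e+06, without TMM factors. Contrasts were age in 8 fractions, the difference of age effects (8), each fraction against HSCs (14) and neighbours in the order of levels. In simulated counts for aged against young HSCs, 13996 genes entered the fit, and each change was given to 50 genes of higher mean level. Changes of 1 on the log2 scale were recovered in 90.0% of cases upward and 84% downward, and changes of 2 in 100% and 96%. Recovery for genes with few counts was not examined. Ratios to young CLPs, which held 3 Selp counts in all, were taken from summed counts with an exact binomial interval.

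The members and gene lists were chosen with earlier results of these data known. Besides the members, the text names list genes called with age in HSCs, the 3 with the lowest adjusted p in each other fraction (signalling genes in HSCs only), and the 5 genes with the highest correlation of group mean log2 CPM (prior count 2), though not every gene so named is reported here. Genes whose names had become dates (27, with 0.188% of counts) stayed in the fit. Alternatives were DESeq2 size factors, no filter, DESeq2 1.42.0's Wald test, a replicate block, fits on fewer libraries and leaving out each library. Duplicates of a group differed by more than sampling noise in all 16 groups.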

Additional observations from a re-analysis of the deposited data

Results flagged for a closer look

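The age difference of both members differed between fractions when that difference was tested as an interaction in the edgeR fit. For Selp the difference in HSCs exceeded that in MPP1 by 1.43, in MPP2 by 1.90, in MPP3 by 1.93, in MPP4 by 1.61, in GMPs by 1.75 and in MEPs by 2.53 on the log2 scale, and that averaged over MPP1 to MPP4 by 1.72. The 2 aged and 2 young HSC libraries enter each of these. The MEP value rests on 2 to 11 counts per library. For Selplg the difference in HSCs minus that in CLPs was -0.54, with Selplg at 245 and 223 CPM in young and aged HSCs and at 1150 and 1561 CPM in young and aged CLPs. Groups of 2 libraries were not examined for single libraries standing apart.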

How the results depend on the processing

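The age differences of Selp in HSCs, MPP1 to MPP4 and GMPs kept their direction and their call under DESeq2 size factors, no filter on low counts, DESeq2's Wald test, a replicate block, fits of the 4 libraries of a fraction and leaving out each library, where a group's lone library is assumed to vary like the others. In HSCs the range over libraries left out was 3.44 to 3.66 on the log2 scale. Of 383 values of both members recomputed under the settings other than leaving out single libraries, some of them fits of one age or one fraction only, 364 kept their direction and their side of the threshold, and of 412 with a library left out, 384 did. The causes of the changes below were not tested.

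The Selplg difference in MPP4, near 0, was -0.050 under DESeq2 size factors, -0.0391 without the filter, -0.0498 by the Wald test and -0.000399 in its own 4 libraries, and -0.0360 to 0.0369 over libraries left out. In MEPs Selplg passed the threshold at -0.31 with size factors, -0.35 without the filter, -0.31 by the Wald test and, at -0.27, with a threshold of 0.05. Its excess of HSCs over the mean of MPP1 to MPP4 was 0.0127 with size factors and 0.0137 by the Wald test, against -0.0255 in the values reported. Selp in aged MPP3 minus MPP1 was -0.0439, -0.0205 and -0.0440 with size factors, no filter and the Wald test. The Wald test also called Selp in young MPP1 over HSCs (0.39) and young MPP2 over MPP1 (0.36), and Selplg in young MPP3 over MPP2 (0.29) and aged MPP4 over MPP3 (0.25). In the 4 CLP libraries alone, Selp (5.19, a fitted value with young libraries at the floor) and Selplg (0.46) missed the threshold.

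Over libraries left out, the Selp excess of HSCs was 1.25 to 1.50 over MPP1 and 1.09 to 3.19 over MEPs. The Selplg difference in MPP2 was -0.0574 to 0.00631 and in MEPs -0.33 to -0.28. The Selplg excess of HSCs was -0.19 to 0.0346 over MPP1, -0.21 to 0.0218 over MPP2, -0.0937 to 0.13 over MPP3, -0.14 to 0.0880 over GMPs and -0.18 to 0.0466 over the MPP mean. Selplg in young MPP2 over HSCs was 0.26 to 0.31 and lost its call in 3 of 4 such fits (adjusted p = 0.0146 to 0.0356), and in aged MPP1 over HSCs 0.14 to 0.36, called without aged HSC replicate 2. Selp in aged MPP3 minus MPP1 was -0.0508 to 0.0601.

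Correlations of duplicate differences between young and aged cells of a fraction were -0.06 to 0.07, so young and aged duplicates shared only a number. Whether duplicates of the same number were linked across the fractions of an age was not examined. The replicate block fitted a common shift between the duplicates over all groups. With a replicate block the Selp difference was 3.58 in HSCs and 1.68 in MPP2, and the block changed no call of a member. DESeq2 size factors moved the median of all genes in GMPs against HSCs by -0.11 in young and -0.13 in aged cells. The Wald test called 1387 genes with age in HSCs, against 764 in the edgeR fit, and 1663 against 963 in MPP1 and 1887 against 1105 in MPP2. For the excess of HSCs it called 143 genes against 17 over MPP1, 451 against 114 over MPP2, 869 against 300 over MPP3, 1038 against 443 over MPP4, 1112 against 425 over the MPP mean, 2512 against 1654 over GMPs and 2202 against 1466 over CLPs, and among the MPPs 446 to 1803 against 190 to 1167. Fits of the 4 libraries of a fraction called fewer genes in HSCs (207), MPP3 (1294 against 1972), MPP4 (1458 against 2347), GMPs (1149 against 2674), MEPs (734 against 2944) and CLPs (128 against 1478), and more in MPP1 (2421) and MPP2 (3336). Few counts limit Selp in MEPs and young CLPs.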
